A study of Mus musculus with 12 samples.

Results

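The guidance genes described here are the semaphorins, the plexins, the Eph receptors and the ephrins of the mouse. They were taken by symbol from the protein-coding genes of the RefSeq annotation of GRCm38, the mm10 build, and came to 51 of 21887 genes: 20 semaphorins, 9 plexins, 14 Eph receptors and 8 ephrins. Of these, 49 had at least 1 Mediator region assigned to them. The plexin gene Plxnb3 and the semaphorin gene Sema3b had none of either protein, and the Eph receptor gene Epha8 had none of MED1.

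Semaphorins are secreted, membrane-bound or lipid-anchored proteins that bind plexins on the receiving cell, in several secreted forms with a neuropilin as co-receptor. Ephrins are membrane-anchored ligands of the Eph receptors, which form the largest family of receptor tyrosine kinases, and signals pass into both of the cells in contact. Both systems steer axons and growing vessels and keep cell populations apart in the embryo. Mediator is the multi-subunit complex that links transcription factors at enhancers and promoters to RNA polymerase II, and MED1 and MED24 are 2 of its subunits.

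The study mapped MED1 and MED24 by ChIP-seq in E14tg2a mouse embryonic stem cells of 129SV background that stably carried cRAF-ErT2, a RAF kinase fused to a hormone-binding domain that responds to 4OHT (4-hydroxytamoxifen), which was used to switch on ERK signalling. Cells treated with 250 nM 4OHT for 2 h were compared with untreated cells at 0 h, in clones a and b, so that each group held 2 libraries. MED1 was precipitated with an antibody to the protein and MED24 with an antibody to FLAG, after crosslinking with 1% formaldehyde and then 2 mM disuccinimidyl glutarate. All groups had been grown in serum with LIF and 2 µM Chir99021, an inhibitor of GSK3, and had then been kept for 24 h in serum with LIF and 250 nM PD173074, an inhibitor of FGF receptors. The libraries analysed include none from vehicle-treated cells and none from cells without the cassette, so 4OHT, time in culture and ERK activation cannot be told apart. The 4 input samples were not analysed here. Names inside the MED24 lists carry FLAG and another factor's name, EP300; the sample labels, which say MED24, were followed.

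Peaks of the 4 libraries of a protein that overlapped by at least 1 bp were merged into 1 region, and each region was given to the nearest gene span within 100 kb. A region was called gained when both 2 h libraries and neither 0 h library had a peak in it, lost when both 0 h libraries and neither 2 h library had one, and retained when all 4 had one. A region that is not called may still carry signal under the caller's limit, since every list ended at a score of 20. Rank is given as a percentile, the place of a region's strongest peak among all peaks of its own library, with 100 as the strongest. The lists differ in length, so retained regions were also ranked among the retained regions alone, which are equally many in every library of a protein; this alternative was added after the data were seen. A percentile is a rank and not an amount of Mediator.

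The promoters that bear most directly on these calls are 5 that had a MED24 peak in both 2 h libraries and in neither 0 h library, belonging to Sema5b, Sema4a, Plxna2, Plxnc1 and Efna3, and for contrast that of Epha2, which had a peak in all 8 libraries. The 250 bases before each start site are given 5′ to 3′ on the strand of the gene, from RefSeq on GRCm38.p6, which is the C57BL/6J reference and not the 129SV sequence of these cells. They lie at chr16:35541112-35541361 on the plus strand for Sema5b, chr3:88455762-88456011 on the minus strand for Sema4a, chr1:194619579-194619828 on the plus strand for Plxna2, chr10:94944846-94945095 on the minus strand for Plxnc1, chr3:89322940-89323189 on the minus strand for Efna3 and chr4:141300971-141301220 on the plus strand for Epha2. Capitals mark matches to the KLF motif GGGNGTGG, on either strand, in Sema4a, Plxnc1 and Epha2, and to the STAT motif TTCNNNGAA in Efna3. Sema5b and Plxna2 had no match to any motif searched.
Sema5b: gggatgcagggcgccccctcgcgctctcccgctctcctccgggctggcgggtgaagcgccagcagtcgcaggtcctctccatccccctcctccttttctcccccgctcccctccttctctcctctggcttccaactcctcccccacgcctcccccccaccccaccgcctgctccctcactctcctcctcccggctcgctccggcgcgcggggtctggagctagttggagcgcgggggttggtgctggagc
Sema4a: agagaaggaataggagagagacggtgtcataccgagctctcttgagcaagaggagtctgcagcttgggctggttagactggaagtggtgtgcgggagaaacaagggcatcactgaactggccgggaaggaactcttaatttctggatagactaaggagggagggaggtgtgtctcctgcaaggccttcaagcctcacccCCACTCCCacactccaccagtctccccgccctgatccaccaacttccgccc
Plxna2: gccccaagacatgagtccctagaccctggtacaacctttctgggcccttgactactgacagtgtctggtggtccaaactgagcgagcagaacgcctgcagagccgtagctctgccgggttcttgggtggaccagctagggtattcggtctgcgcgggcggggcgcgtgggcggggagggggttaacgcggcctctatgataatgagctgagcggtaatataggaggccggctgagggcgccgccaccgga
Plxnc1: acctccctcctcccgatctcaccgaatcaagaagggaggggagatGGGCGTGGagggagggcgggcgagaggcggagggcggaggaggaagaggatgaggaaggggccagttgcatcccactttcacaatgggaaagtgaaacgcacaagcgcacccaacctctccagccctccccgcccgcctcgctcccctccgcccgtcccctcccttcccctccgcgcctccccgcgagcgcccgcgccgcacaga
Efna3: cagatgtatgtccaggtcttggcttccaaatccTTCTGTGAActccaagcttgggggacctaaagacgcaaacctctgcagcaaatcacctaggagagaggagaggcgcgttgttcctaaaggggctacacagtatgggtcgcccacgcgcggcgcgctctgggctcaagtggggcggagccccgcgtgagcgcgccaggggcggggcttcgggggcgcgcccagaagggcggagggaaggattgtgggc
Epha2: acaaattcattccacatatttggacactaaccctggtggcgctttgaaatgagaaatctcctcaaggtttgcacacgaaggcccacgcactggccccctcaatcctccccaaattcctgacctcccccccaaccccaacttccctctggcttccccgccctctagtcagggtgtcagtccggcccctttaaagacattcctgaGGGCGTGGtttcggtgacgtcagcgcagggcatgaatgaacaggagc

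These 6 stretches were rich in G and C, with 72.0% in Sema5b, 68.8% in Plxnc1, 63.6% in Efna3, 62.8% in Plxna2, 56.4% in Sema4a and 55.6% in Epha2. The promoter table held 59 windows of 300 bases, 250 before the start site and 50 after it, for 45 of the 51 genes. The KLF motif was in 20 of the 59 windows (33.9%) and in 19.4% of all 21263 promoter windows. The STAT motif was in 3 (5.08%, against 7.69% of all), the AP-1 motif TGANTCA in 3 (5.08%, against 6.99% of all) and the ETS motif ACCGGAA in 2 (3.39%, against 4.66% of all). Both strands were searched. The second ETS motif searched, which shares letters with ACCGGAA, and the ESRRB and OCT motifs were in none of the 59 windows, and in 5.15%, 0.334% and 1.66% of all. A match describes the letters only.

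The 8 libraries held 37483 to 48931 peaks, and the number of reads behind them is not given in the peak lists, so depth is unknown. The 2 h lists were the longer ones: the MED1 lists held 43949 and 47305 peaks at 2 h, against 38668 and 37483 at 0 h, and the MED24 lists held 42445 and 48931 peaks at 2 h, against 41689 and 38398 at 0 h. All 9 embryonic stem cell marker genes, among them Pou5f1, Sox2, Nanog and Esrrb, had regions called in every library. Of 11 fibroblast marker genes, which a feeder layer would bring, 3 were called in every library and Dcn, Lum and Postn in none. With 2 libraries against 2, the exact two-sided permutation test cannot give a p below 0.333, and the clones are the only replication. Values are given by clone where the libraries are compared.

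Over all 51 genes, more Mediator regions were called at 2 h than at 0 h in both clones. MED1 was called in 172 and 190 of 285 guidance gene regions at 2 h, in clones a and b, against 132 and 129 at 0 h, on average 50.5 more (181 ± 12.7 at 2 h and 130.5 ± 2.12 at 0 h, SD, n = 2 each; exact permutation p = 0.333). MED24 was called in 168 and 196 of 281 regions at 2 h, against 140 and 124 at 0 h, on average 50 more (182 ± 19.8 at 2 h and 132 ± 11.3 at 0 h, SD, n = 2 each; exact permutation p = 0.333). The groups did not overlap for either protein, and neither did those of all regions. Of all MED1 regions 63.2% and 68.6% were called at 2 h, against 55.4% and 53.6% at 0 h. The guidance gene shares were 60.4% and 66.7%, against 46.3% and 45.3%. Of all MED24 regions 61.2% and 71.5% were called at 2 h, against 60.3% and 55.2% at 0 h. The guidance gene shares were 59.8% and 69.8%, against 49.8% and 44.1%. The gap was wider in clone b, with 61 more MED1 regions and 72 more MED24 regions at 2 h, than in clone a, with 40 and 28 more. It was wider in clone b over all regions too.

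Since the 2 h lists were longer, the guidance gene regions were also taken as a share of each library's called regions. That share was 0.417% and 0.424% of MED1 regions at 2 h, against 0.365% and 0.369% at 0 h, and 0.415% and 0.415% of MED24 regions at 2 h, against 0.351% and 0.340% at 0 h. In lists limited to the 20000 highest ranked peaks of each library, an alternative added after the data were seen, there were 65 and 67 MED1 regions of 112 at 2 h, against 53 and 54 at 0 h, and 69 and 67 MED24 regions of 111 at 2 h, against 59 and 56 at 0 h.

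Among the MED1 regions of these genes, 57 of 285 (20%) were gained, against 17.6% of all 65291 MED1 regions, 17 (5.96%) were lost, against 6.9% of all, and 58 (20.4%) were retained, against 30.9% of all. For MED24, 60 of 281 (21.4%) were gained, against 16% of all 66123 regions, 19 (6.76%) were lost, against 8.83% of all, and 65 (23.1%) were retained, against 32.6% of all. Taken over the 51 genes, the gained and lost shares lie near those of all regions, and the families are described in turn. With any 1 library left out, which lets a single library decide a call at 1 of the times, 67 to 94 MED1 and 69 to 99 MED24 regions were gained and 26 to 38 and 23 to 47 were lost, with the highest gained counts without the 2 h library of clone a. Gained regions outnumbered lost ones at 22 genes for MED1 and at 26 for MED24, and lost ones outnumbered gained ones at 5 genes for MED1 and at 8 for MED24. For both proteins at once, 16 genes had more gained and 1, the plexin gene Plxna4, had more lost. Over all regions gained ones also outnumbered lost ones, 11484 against 4508 for MED1 and 10574 against 5839 for MED24. The same count by gene was not made over all genes, so these gene counts have no background.

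**Figure D1:**
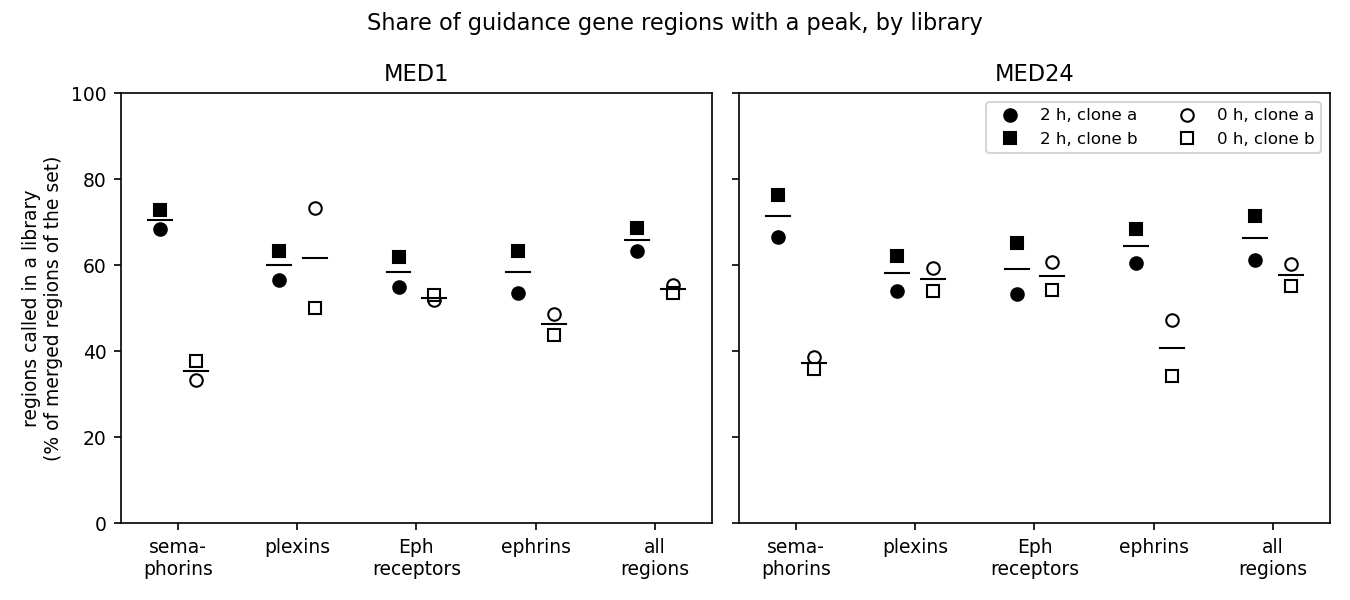
Share of merged regions with a peak in each library (vertical axis, percent of the regions of the set), for MED1 on the left and MED24 on the right. Filled marks are 2 h libraries and open marks 0 h libraries, circles clone a and squares clone b, and lines the group means. The semaphorin regions were called in 66.7 to 76.3% at 2 h and in 33.3 to 38.6% at 0 h, while the marks of plexins overlap between the groups for both proteins and those of Eph receptors for MED24.

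The semaphorins, the ligands, carried most of the gained regions of the 51 genes. Of 114 MED1 regions at semaphorin genes, 34 (29.8%, against 17.6% of all MED1 regions) were gained, 5 were lost and 21 were retained, and the counts for MED24 were also 34 gained (29.8%, against 16% of all MED24 regions), 5 lost and 23 retained of 114. Peaks of MED1 were present in 78 and 83 of them at 2 h, against 38 and 43 at 0 h, so that each clone had 40 more at 2 h. Peaks of MED24 were present in 76 and 87 at 2 h, against 44 and 41 at 0 h, with 32 more in clone a and 46 more in clone b. Every 2 h library was above every 0 h library, as over all regions (exact two-sided permutation p = 0.333 for each protein). As a share of each library's called regions, semaphorin regions made up 0.189% and 0.185% of MED1 regions at 2 h, against 0.105% and 0.123% at 0 h, and 0.188% and 0.184% of MED24 regions at 2 h, against 0.110% and 0.112% at 0 h.

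Of the 20 semaphorin genes, 13 had more gained than lost MED1 regions and 14 had more gained than lost MED24 regions, with 10 in both, while 1 gene had more lost for MED1 and another for MED24. These gene counts, too, have no background over all genes. The balance did not rest on 1 gene: without Sema5b, the gene with the most gained regions, 27 regions were gained and 5 lost of 100 for MED1, and 26 were gained and 5 lost of 100 for MED24. In lists limited to the 20000 highest ranked peaks, MED1 was called in 30 and 31 of 47 semaphorin regions at 2 h, against 16 and 16 at 0 h, and MED24 in 31 and 29 of 45 at 2 h, against 21 and 21 at 0 h. Fibroblast marker genes moved the same way, with 12 and 14 of 21 MED1 regions called at 2 h, against 6 and 8 at 0 h, and 13 and 15 of 20 MED24 regions at 2 h, against 9 and 9 at 0 h. Of their MED1 regions 6 (28.6%, against 17.6% of all) were gained and none was lost. Of their MED24 regions 2 (10%, against 16% of all) were gained and 1 (5%, against 8.83% of all) was lost. The called share of all regions was also higher at 2 h, on average 65.9% against 54.5% for MED1 and 66.3% against 57.7% for MED24. The part of fibroblast marker genes in the result was not tested. Embryonic stem cell marker genes had 65 and 69 of 130 MED1 regions called at 2 h, against 85 and 89 at 0 h, and 75 and 85 of 129 MED24 regions at 2 h, against 86 and 85 at 0 h. These genes went both ways. In both clones Nanog, Esrrb, Klf4, Tfcp2l1 and Utf1 had fewer regions called at 2 h for both proteins, and Zfp42 had more. Sox2 had more for MED1, and Pou5f1 and Dppa3 had more for MED24, in both clones.

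**Figure D2:**
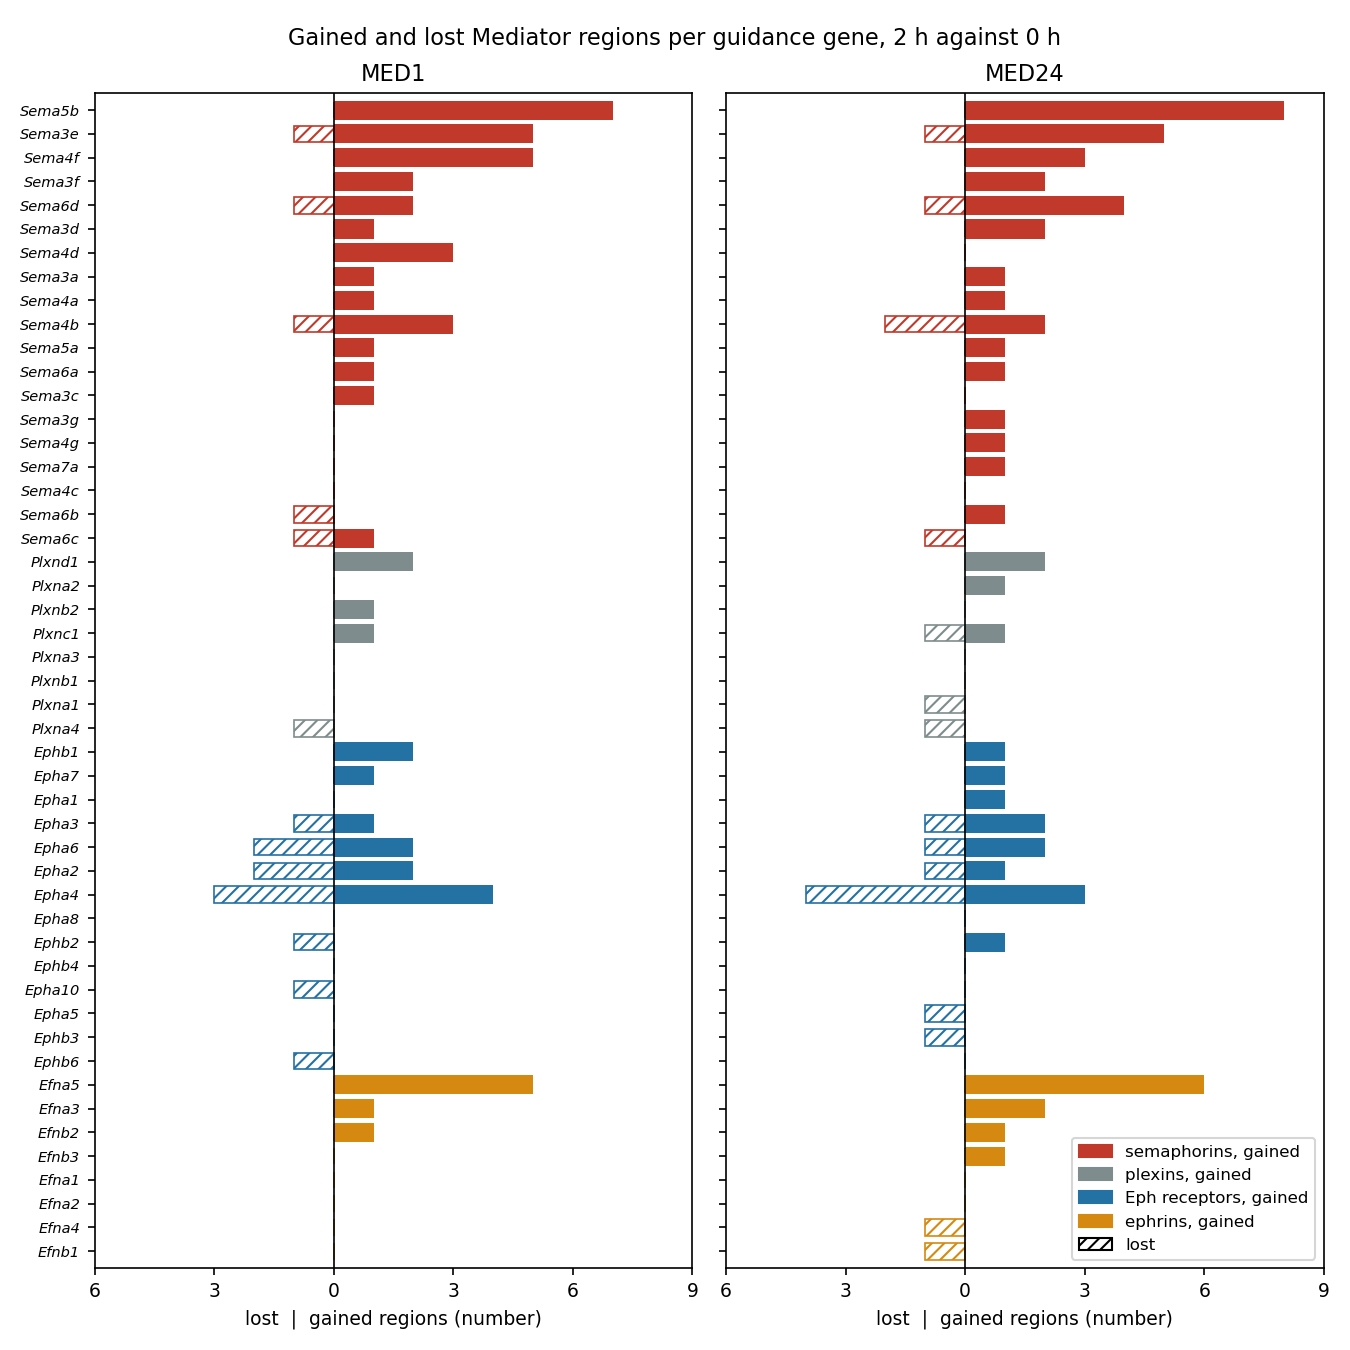
Number of gained regions (filled bars, to the right) and lost regions (hatched bars, to the left) at each of the 49 guidance genes with a region, for MED1 and MED24, grouped by family. Sema5b leads with 7 gained MED1 and 8 gained MED24 regions and none lost, and Efna5 leads the ephrins with 5 and 6, while Epha4 has bars on both sides, 4 gained and 3 lost for MED1 and 3 gained and 4 lost for MED24.

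Sema5b encodes a transmembrane semaphorin that restrains neurite growth in the retina, and its gene spans chr16:35541154-35664261. MED1 peaks lay in 12 and 12 of its 14 regions at 2 h, against 4 and 5 at 0 h, and MED24 in 11 and 14 of 14 at 2 h, against 3 and 3 at 0 h. No region of the gene was lost for either protein. The gained regions lay along the gene, and the strongest for MED1 by percentile, at chr16:35623705-35624739, 82.9 kb downstream of the start site, stood at percentiles 90.3 and 88.3 at 2 h, with the authors' fold enrichment at 14.7 and 11.4. The MED24 region there stood at percentiles 97.2 and 92.8 at 2 h. A further region 64.2 kb downstream, chr16:35605158-35605980, was gained for MED1 at percentiles 87.6 and 86.2 and for MED24 at 77.7 and 81.3. A cluster about 46.6 kb downstream was present before treatment: its leading MED1 region, chr16:35587598-35588331, stood at percentiles 96.8 and 95.8 at 2 h, against 84.0 and 86.0 at 0 h.

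At the start site of Sema5b the 2 proteins differed in their calls. MED1 was retained at chr16:35540869-35542818, with percentiles of 55.7 and 74.6 at 2 h, against 27.6 and 34.1 at 0 h. MED24 was gained there, at chr16:35540784-35541741, with percentiles of 64.6 and 56.9 at 2 h and no peak at 0 h. The promoter printed above lies inside both.

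Sema3e encodes a secreted semaphorin that binds plexin-D1 without a neuropilin and patterns blood vessels, and its gene spans chr5:14025276-14256689. Among the 19 MED1 regions given to it, 5 were gained and 1 was lost, and among the 14 MED24 regions 5 were gained and 1 was lost. MED1 peaks lay in 13 and 13 of its regions at 2 h, against 6 and 5 at 0 h, and MED24 in 10 and 13 at 2 h, against 6 and 6 at 0 h. The retained region that differed most in rank between the times for MED1 lay 49.4 kb outside the gene span, at chr5:13974003-13975876. MED1 stood there at percentiles 99.9 and 99.9 at 2 h, against 38.4 and 55.1 at 0 h, with the authors' fold enrichment at 36.7 and 39.6 at 2 h, against 4.50 and 5.59 at 0 h. MED24 stood there at percentiles 99.9 and 99.9 at 2 h, against 66.2 and 28.3 at 0 h. Within the 2 h libraries this region ranked among the strongest peaks of the genome for both proteins.

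**Figure D3:**
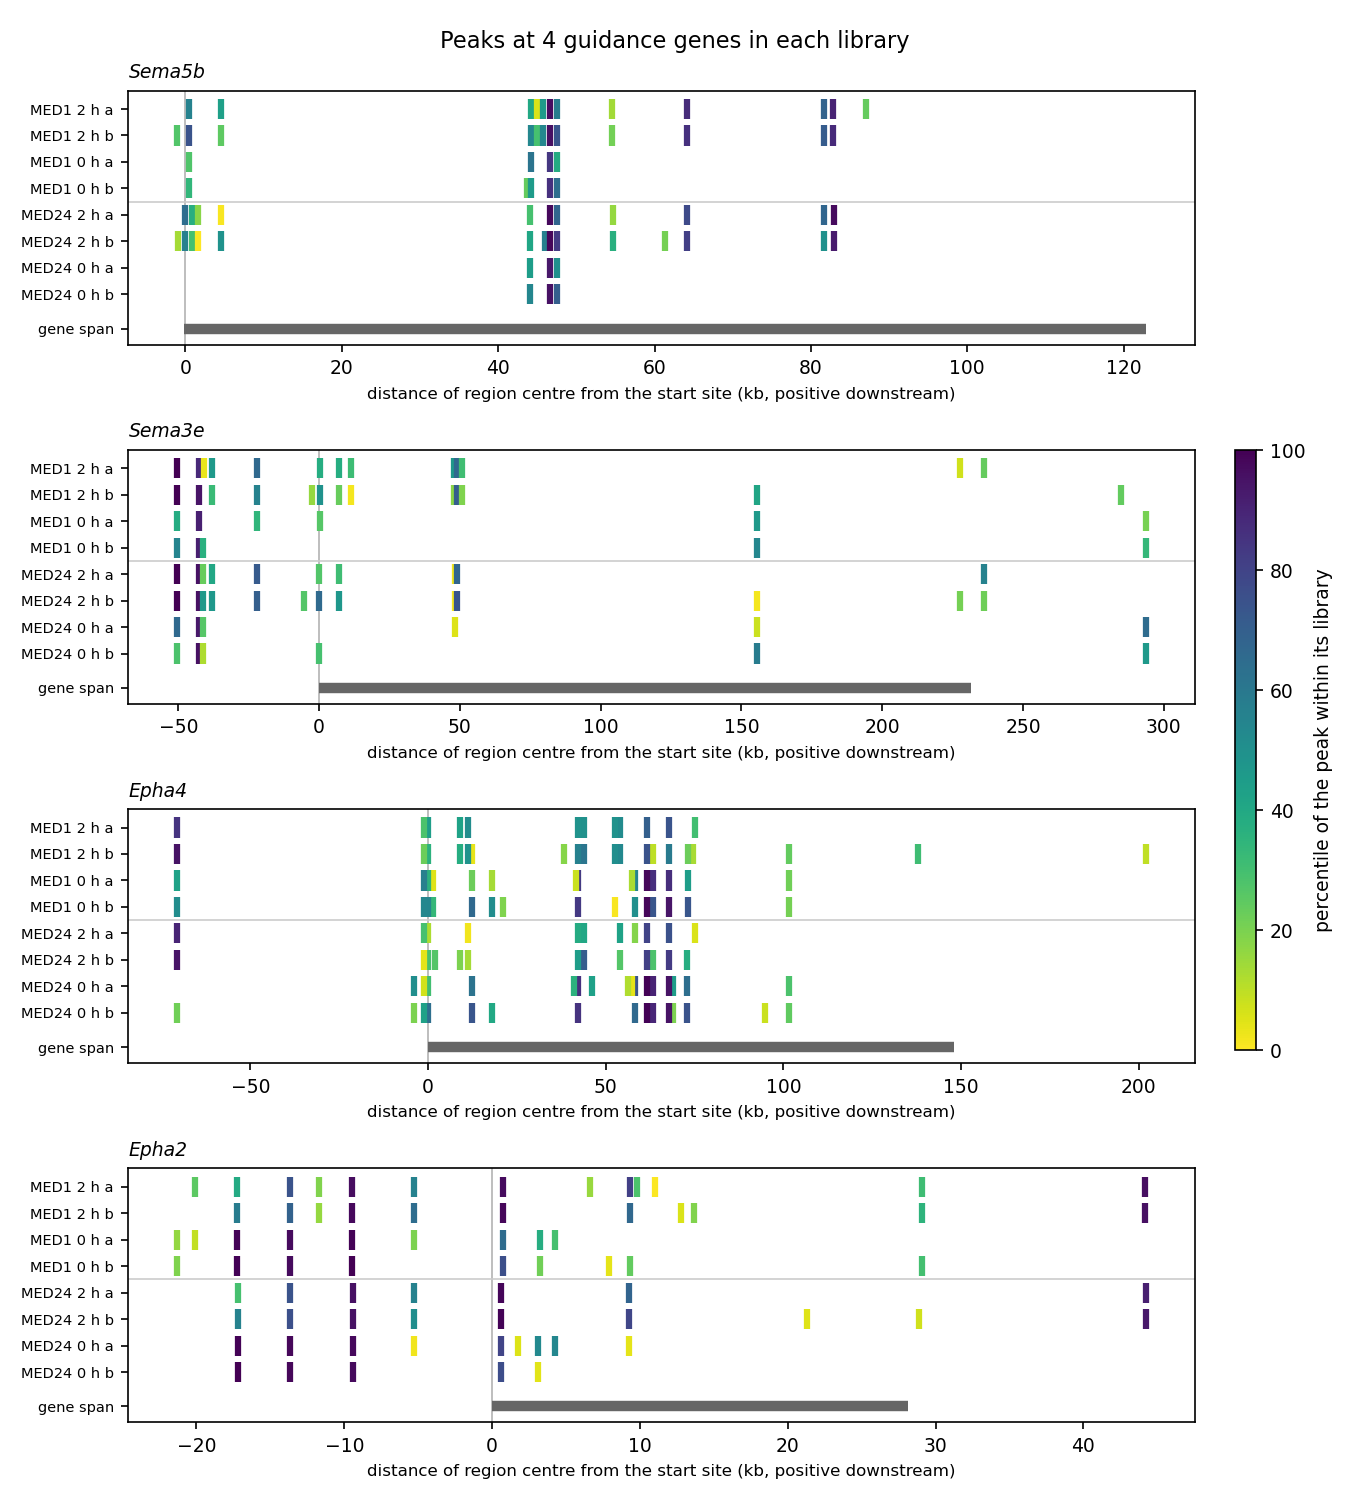
Regions with a peak in each of the 8 libraries at Sema5b, Sema3e, Epha4 and Epha2, by distance of the region's centre from the start site (kb, positive downstream); each tick is 1 region, of a width that is not to scale, coloured by the percentile of its peak within the library, and the grey bar is the gene span. At Sema5b the ticks beyond 60 kb are in 2 h libraries only, and at Epha2 the leftmost tick present in all 8 libraries is dark at 0 h, at percentiles of 98.9 to 99.6, and lighter at 2 h, at 29.5 to 58.2.

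Sema4f, a transmembrane class 4 semaphorin gene, had 5 gained and no lost MED1 region of 10, and 3 gained and no lost MED24 region of 11. MED1 peaks lay in 7 and 9 of its regions at 2 h, against 1 and 1 at 0 h, and MED24 in 8 and 6 at 2 h, against 4 and 2 at 0 h. The 2 h and 0 h libraries did not overlap for either protein, as over all regions. Sema4f was named for its gained regions, so this gap was nearly fixed and adds no support. Its strongest gained region, chr6:82845161-82845727, lay 66.2 kb outside the gene span at MED1 percentiles of 91.6 and 91.1 and MED24 percentiles of 89.0 and 92.2. Sema3f, a secreted repellent that acts through neuropilin-2, had 2 gained and no lost region for each protein, of 4 for MED1 and 6 for MED24. Beside it, at chr9:107723756-107725114, MED24 was retained at percentiles of 90.2 and 86.6 at 2 h, against 7.88 and 19.7 at 0 h, while MED1 was gained at the overlapping region, at 75.8 and 49.7.

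The gained semaphorin region with the highest percentiles lay inside Sema4b, a transmembrane class 4 semaphorin gene. MED1 was gained at chr7:80205801-80208608, 8.62 kb downstream of the nearest start site, with percentiles of 97.7 and 99.1 and the authors' fold enrichment at 15.7 and 31.0. MED24 was gained at chr7:80205904-80208676, with percentiles of 99.3 and 99.6 and authors' scores of 2520 and 3198. No 0 h library had a peak there. Neighbouring regions of the gene were retained, and one of them, chr7:80199385-80200475, stood at MED1 percentiles of 64.1 and 72.1 at 2 h, against 35.3 and 40.4 at 0 h.

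Sema6d, which encodes a class 6 transmembrane semaphorin that binds plexin-A1, held regions of both kinds. The strongest lost semaphorin region lay in it, chr2:124294893-124295583 for MED1, at percentiles of 47.1 and 72.7 at 0 h, and chr2:124294938-124295728 for MED24, at 85.5 and 89.3 at 0 h. Elsewhere in the same gene, chr2:124637008-124637530 was retained for MED1, at percentiles of 90.1 and 94.0 at 2 h, against 47.9 and 38.2 at 0 h, and the overlapping MED24 region was gained, at 93.7 and 93.6. Sema6c, another class 6 gene, was the semaphorin with the lowest balance, at 1 gained and 1 lost of 6 MED1 regions and none gained and 1 lost of 4 MED24 regions. Sema4c had 1 region for each protein, called in all 8 libraries.

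The plexins, the receptors of the semaphorins, did not show the same gap between the groups. A MED1 peak was present in 17 and 19 of 30 plexin regions at 2 h, against 22 and 15 at 0 h, and MED24 in 20 and 23 of 37 at 2 h, against 22 and 20 at 0 h, and for both proteins the groups overlapped (exact permutation p = 1). Of the MED1 regions 4 (13.3%) were gained and 1 (3.33%) was lost, against 17.6% and 6.9% of all MED1 regions, and of the MED24 regions 4 (10.8%) were gained and 3 (8.11%) were lost, against 16% and 8.83% of all. As a share of each library's called regions, plexin regions made up 0.0412% and 0.0424% for MED1 at 2 h, against 0.0608% and 0.0429% at 0 h, and 0.0494% and 0.0487% for MED24 at 2 h, against 0.0552% and 0.0548% at 0 h. The difference between plexins and semaphorins was not tested.

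Plxnd1, the receptor gene for Sema3e, had the highest balance among the plexins, with 2 of 3 MED1 regions and 2 of 4 MED24 regions gained and none lost. For this gene MED1 was called in 3 and 3 of its regions at 2 h, against 1 and 1 at 0 h, and MED24 in 3 and 4 at 2 h, against 0 and 1 at 0 h. The stronger gained region, chr6:115991543-115991921, lay 3.27 kb downstream of the start site at MED1 percentiles of 86.2 and 87.7 and MED24 percentiles of 77.9 and 88.8. Plxna4, a co-receptor with neuropilins for class 3 semaphorins, was the plexin gene with the lowest balance. MED1 was called in 0 and 1 of its 5 regions at 2 h, against 4 and 3 at 0 h, and MED24 in 3 and 1 of 6 at 2 h, against 4 and 3 at 0 h. One region, chr6:32202767-32203077, was lost for MED1, at percentiles of 64.6 and 31.6 at 0 h, and the overlapping one was lost for MED24.

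The other plexin genes held few gained or lost regions. Plxnc1, the receptor gene for Sema7a, had 1 gained MED1 region of 7 and, for MED24, 1 gained and 1 lost of 8. Its lost MED24 region, chr10:94818895-94819248, stood at percentiles of 71.6 and 64.5 at 0 h. Plxnb2, a receptor for class 4 semaphorins, had 1 gained MED1 region of 4 and no gained or lost MED24 region, and its MED24 region chr15:89176840-89177554 stood at percentiles of 70.2 and 74.2 at 2 h, against 17.0 and 24.5 at 0 h. Plxna2 had 1 gained MED24 region of 3, and Plxna1 1 lost MED24 region of 9.

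Among the ephrins, the ligands of the Eph receptors, the share of gained regions was near that of all regions for MED1 and above it for MED24. Of 41 MED1 regions 7 (17.1%, against 17.6% of all) were gained and none was lost (against 6.9% of all), and of 38 MED24 regions 10 (26.3%, against 16% of all) were gained and 2 (5.26%, against 8.83% of all) were lost. The 2 h libraries had MED1 in 22 and 26 of them, against 20 and 18 at 0 h, and MED24 in 23 and 26, against 18 and 13 at 0 h (exact two-sided permutation p = 0.333 for each protein). As over all regions, every 2 h library was above every 0 h library, here by 2 and 8 MED1 regions and by 5 and 13 MED24 regions within clones a and b. As a share of each library's called regions the MED1 groups overlapped, at 0.0533% and 0.0580% at 2 h, against 0.0553% and 0.0514% at 0 h, and the MED24 groups did not, at 0.0569% and 0.0550% at 2 h, against 0.0452% and 0.0356% at 0 h.

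Efna5 encodes a lipid-anchored ephrin that repels retinal axons in the topographic map, and it supplied most of the gained ephrin regions, 5 of 7 for MED1 and 6 of 10 for MED24. Of its 17 regions, 12 and 11 had MED1 at 2 h, against 4 and 5 at 0 h, and MED24 in 9 and 12 of 13 at 2 h, against 4 and 3 at 0 h. None of its regions was lost. The gained MED1 region with the highest percentiles, chr17:62504621-62505064, lay 97.9 kb outside the gene span, close to the 100 kb limit, at 84.3 and 78.1, and the leading gained MED24 region, chr17:62687247-62687871, lay inside the gene at 75.4 and 85.2. Efna3, another lipid-anchored ephrin gene, had 1 gained MED1 region of 7 and 2 gained MED24 regions of 8, one of them at its start site. Efnb2, the transmembrane ephrin of arteries that binds EphB4, had 1 gained region of 7 for each protein, and Efna4 and Efnb1 each had 1 lost MED24 region of 2.

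The Eph receptors held gained and lost regions in like numbers. Of 100 MED1 regions 12 (12%, against 17.6% of all) were gained and 11 (11%, against 6.9% of all) lost, and of 92 MED24 regions 12 (13.0%, against 16% of all) were gained and 9 (9.78%, against 8.83% of all) lost. Peaks of MED1 lay in 55 and 62 of them at 2 h, against 52 and 53 at 0 h (exact permutation p = 0.333), and MED24 in 49 and 60 at 2 h, against 56 and 50 at 0 h (exact permutation p = 1). For MED24 the difference had opposite signs in the clones, -7 in clone a and 10 in clone b. As a share of each library's called regions Eph receptor regions were lower at 2 h, at 0.133% and 0.138% for MED1, against 0.144% and 0.151% at 0 h, and at 0.121% and 0.127% for MED24, against 0.140% and 0.137% at 0 h. Of the 14 genes, 3 had more gained and 3 had more lost MED1 regions, and 6 had more gained and 3 had more lost MED24 regions.

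Epha4 encodes a receptor that binds ephrins of both classes and keeps corticospinal axons from recrossing the midline. It had the most regions of all the guidance genes, and its gene spans chr1:77367182-77515107. Of its 26 MED1 regions 4 were gained and 3 lost, and of its 25 MED24 regions 3 were gained and 4 lost. MED1 was called in 12 and 19 of them at 2 h, against 15 and 15 at 0 h, and MED24 in 11 and 13 at 2 h, against 16 and 15 at 0 h. Inside the gene a pair of retained regions stood lower at 2 h: chr1:77452323-77454807, 61.5 kb downstream of the start site, stood at MED1 percentiles of 69.9 and 74.5 at 2 h, against 98.4 and 98.3 at 0 h, and the overlapping MED24 region at 79.8 and 80.9 at 2 h, against 99.5 and 99.4 at 0 h. The neighbouring MED24 region chr1:77472646-77473147 stood at 39.0 and 44.6 at 2 h, against 86.0 and 85.2 at 0 h. Upstream of the gene the retained MED1 regions went both ways: chr1:77585453-77586022, 70.3 kb outside the gene span, stood at percentiles of 84.8 and 95.0 at 2 h, against 42.2 and 51.2 at 0 h, and chr1:77515830-77516714, 0.723 kb outside it, at 28.4 and 22.5 at 2 h, against 56.8 and 53.5 at 0 h.

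Epha2, a receptor gene for ephrin-A1 that is known from epithelia and tumours, had an upstream region that ranked lower at 2 h and a gained region downstream. Upstream, 14.9 kb outside the gene span, chr4:141281627-141286329 stood at MED1 percentiles of 39.3 and 58.2 at 2 h, against 98.9 and 99.2 at 0 h, with the authors' fold enrichment at 5.26 and 5.86 at 2 h, against 23.6 and 27.1 at 0 h. MED24 at the overlapping region stood at percentiles of 29.5 and 55.5 at 2 h, against 99.6 and 99.6 at 0 h, with scores of 84 and 153 at 2 h, against 2955 and 3041 at 0 h. Ranked among the retained regions alone, the upstream region stood at 21.4 and 36.4 for MED1 at 2 h, against 97.9 and 98.6 at 0 h, and at 14.8 and 31.7 for MED24 at 2 h, against 99.2 and 99.3 at 0 h. Downstream of the gene, 15.7 kb beyond its end, chr4:141345098-141345727 was gained for MED1 at percentiles of 96.5 and 95.7, and MED24 was gained there at 91.6 and 93.6. The region over the start site, which takes in the promoter printed above, stood at MED1 percentiles of 97.2 and 98.4 at 2 h, against 64.9 and 76.2 at 0 h, and at MED24 percentiles of 98.5 and 99.2 at 2 h, against 79.8 and 76.6 at 0 h. Regions called numbered 13 and 11 of 19 for MED1 at 2 h, against 9 and 9 at 0 h, and 7 and 9 of 12 for MED24 at 2 h, against 9 and 5 at 0 h.

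Among the other Eph receptor genes, Ephb1 had 2 gained MED1 regions of 9 and 1 gained MED24 region of 6, with none lost. At this gene MED1 was called in 7 and 8 regions at 2 h, against 2 and 4 at 0 h. Its region chr9:102400620-102401286, 45.9 kb outside the gene span, stood at MED24 percentiles of 90.6 and 88.2 at 2 h, against 19.6 and 24.5 at 0 h, while chr9:102262004-102262544 inside the gene stood at MED1 percentiles of 40.6 and 40.3 at 2 h, against 77.9 and 75.7 at 0 h. Epha1, Epha3 and Epha7 had 1 more gained than lost MED24 region each. Epha10, Epha5, Ephb3 and Ephb6 each had 1 lost region for 1 of the proteins and none gained.

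Regions retained in all 4 libraries were compared by rank. Over the 58 retained MED1 regions of the 51 genes the median difference in percentile, 2 h minus 0 h, was -2.69, against -3.24 over all retained MED1 regions, and the clones had opposite signs, at -3.66 in clone a and 1.81 in clone b. For the 65 retained MED24 regions it was 4.85, against -0.354 over all, with 1.88 in clone a and 2.69 in clone b. Of the MED1 regions 19 (32.8%) stood higher at 2 h in both clones, against 24.3% of all, and 24 (41.4%) stood lower in both, against 44.2% of all. Of the MED24 regions 29 (44.6%) stood higher in both clones, against 34.4% of all, and 25 (38.5%) stood lower, against 36.8% of all. The MED1 median was 1.785 without the 0 h library of clone a, and the MED24 median was -0.456 without the 2 h library of clone a.

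The semaphorins and the Eph receptors lay on opposite sides of 0, a difference between families that was not tested. For semaphorins the median difference was 11.3 for MED1 (11.7 and 9.77 in clones a and b), with 12 of 21 regions higher at 2 h in both clones and 4 lower, and 10.4 for MED24 (9.60 and 10.7), with 13 of 23 higher and 6 lower. For Eph receptors it was -17.2 for MED1 (-12.8 and -20.3), with 4 of 21 higher and 15 lower, and -4.46 for MED24 (-5.55 and -6.26), with 7 of 26 higher and 14 lower. Plexins had medians of -0.487 for MED1 (-5.92 and 4.25) and 1.62 for MED24 (-3.51 and 5.08), with opposite signs in the clones. Ephrins had 0.401 over 8 MED1 regions (-8.58 and 5.56) and 24.8 over 6 MED24 regions (23.8 and 44.0). Of these 6 regions 4 (66.7%, against 34.4% of all) were higher and none (against 36.8% of all) lower in both clones. Without Sema5b the semaphorin median was 3.90 for MED1 and 10.7 for MED24.

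Ranked among the retained regions alone, in lists of equal length, the semaphorin median was 17.6 for MED1 (20.4 and 15.8 in clones a and b) and 8.99 for MED24 (18.7 and 12.4), and without Sema5b it was 7.55 and 13.3. The Eph receptor median was -11.6 for MED1 (-13.4 and -21.6) and -4.24 for MED24 (-3.24 and -11.8). By these ranks 12 of 21 semaphorin MED1 regions were higher at 2 h in both clones, against 29.8% of all retained regions, and 11 of 21 Eph receptor MED1 regions were lower, against 36.8% of all. For MED24, 14 of 23 semaphorin regions were higher, against 36.1% of all, and 14 of 26 Eph receptor regions were lower, against 36.4% of all. All 20 regions named for the largest differences in rank, Sema3e, Epha2 and Epha4 among them, kept their direction in both clones. They had been picked for large percentile shifts in both clones of the same peak lists. Their direction was thereby nearly fixed and adds no support. Over all 51 genes the median was -0.261 for MED1, against -1.44 over all retained regions, with -0.0533 in clone a and 4.04 in clone b, and it was 3.27 for MED24, against -0.0604 over all, with 7.29 and 2.35. Plexin medians were 3.35 for MED1 (-0.221 and 9.12) and 5.21 for MED24 (2.33 and 4.65), and ephrin medians 5.11 (-2.06 and 4.47) and 17.2 (19.3 and 29.3).

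**Figure D4:**
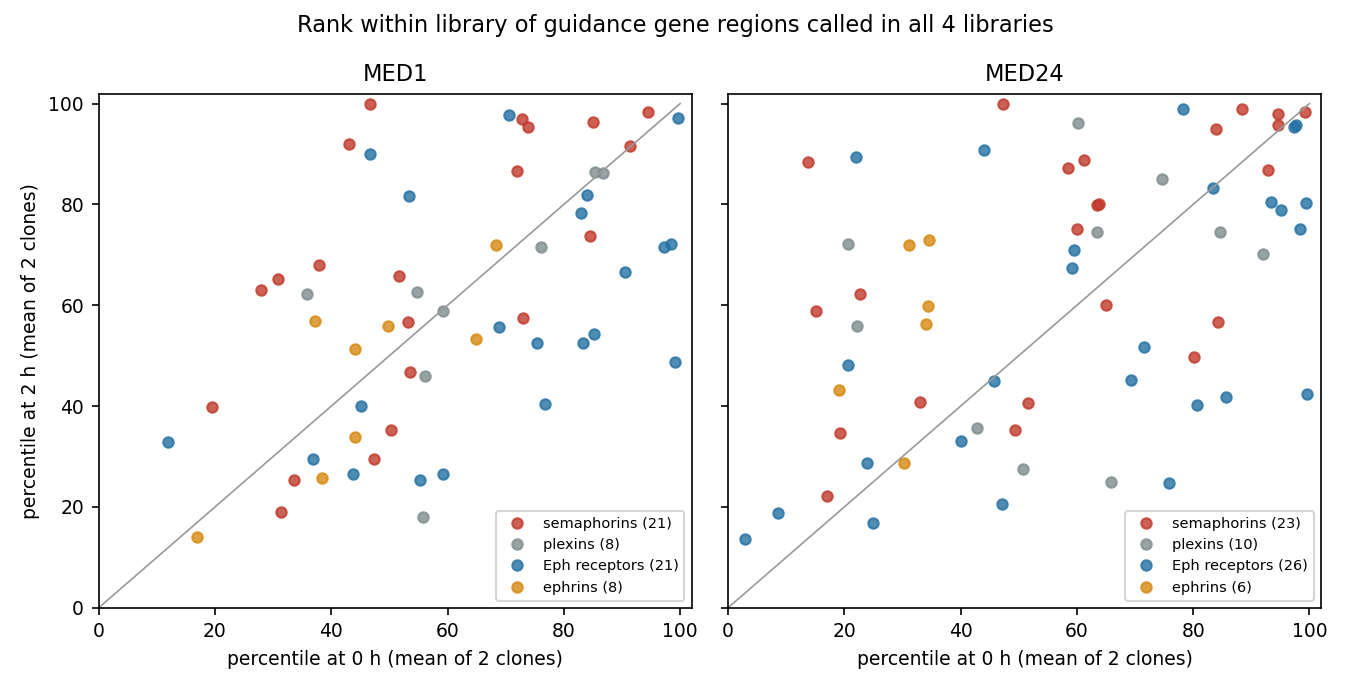
Percentile of each retained guidance gene region at 2 h (vertical axis, mean of the 2 clones) against its percentile at 0 h (horizontal axis), for MED1 and MED24, coloured by family; regions on the line have equal percentiles. Most semaphorin points lie above the line and most Eph receptor points below it, with median differences of 11.3 and -17.2 for MED1 and of 10.4 and -4.46 for MED24.

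MED1 and MED24 were called together at most, but not all, of the gained regions. Of the 57 gained MED1 regions, 37 (64.9%) overlapped a gained MED24 region, against 62.0% of all gained MED1 regions, and of the 60 gained MED24 regions 37 (61.7%) overlapped a gained MED1 region, against 67.6% of all. Of the lost regions, 8 of 17 MED1 regions (47.1%) and 8 of 19 MED24 regions (42.1%) were lost for the other protein as well, against 44.5% and 34.3% of all. No region gained for one protein was lost for the other. All 7 gained MED1 regions of ephrin genes were gained for MED24, as were 19 of 34 at semaphorin genes, 9 of 12 at Eph receptor genes and 2 of 4 at plexin genes.

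Gained regions lay farther from start sites than retained ones, at these genes as over all regions. Of the gained MED1 regions of genes with an entry in the promoter table, 1 of 54 (1.85%) lay within 1 kb of a start site, against 4.67% of all gained MED1 regions, and of the retained ones 23 of 54 (42.6%), against 50.2% of all. The median distance was 45.4 kb for gained and 1.69 kb for retained MED1 regions, against 26.5 kb and 0.934 kb over all. Of the gained MED24 regions 7 of 56 (12.5%) lay within 1 kb, against 9.10% of all, and of the retained ones 19 of 59 (32.2%), against 45.3% of all. The median distance was 44.1 kb for gained and 9.40 kb for retained MED24 regions, against 22.9 kb and 2.92 kb over all. None of the 16 lost MED1 and 17 lost MED24 regions with a distance lay within 1 kb, against 6.43% and 4.03% of all lost regions. With so few lost regions, none is near those shares. Inside the gene spans lay 65.3% of the MED1 and 66.5% of the MED24 regions of these genes, against 56.9% and 56.2% of all regions. The sets are unlike, since all regions include those beyond 100 kb of any gene, which cannot lie inside one. Within 100 kb lay 59836 of 65291 MED1 and 60004 of 66123 MED24 regions, so part of the gap follows from the sets.

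At the promoters the 2 proteins differed, and they did so over all promoter windows too. MED1 had a peak in 29 and 29 of the 59 promoter windows (49.2% each) at 2 h, against 32 and 27 (54.2% and 45.8%) at 0 h. Over all promoter windows the MED1 shares were 48.5% and 49.5% at 2 h, against 48.4% and 47.8% at 0 h. None of the 59 was gained or lost for MED1, against 1.52% gained and 0.832% lost of all promoter windows. MED24 had a peak in 32 and 37 windows (54.2% and 62.7%) at 2 h, against 24 and 27 (40.7% and 45.8%) at 0 h. Over all promoter windows the MED24 shares were 49.2% and 50.9% at 2 h, against 45.9% and 44.0% at 0 h. Of the 59 windows 5 were gained for MED24 (8.47%, against 3.05% of all) and none was lost (against 0.56% of all). The 5 are those printed above: at Sema5b and Efna3 MED1 had a peak in all 4 of its libraries, at Plxna2 and Plxnc1 in some of them and at Sema4a in none. Windows retained were 21 for MED1 (35.6%, against 41.7% of all) and 19 for MED24 (32.2%, against 39.3% of all). A peak in all 8 libraries was found in 14 windows of 11 genes, among them Epha2, Epha7, Ephb4, Efnb2, Efna2, Plxnb1, Plxnb2, Sema4b and Sema4c. The count over 8 libraries was not made for all promoter windows, so it has no background.

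The genes that work with these ligands and receptors, 54 neuropilins, netrins, slits, their receptors and intracellular partners, were taken as a separate list. Of their 370 MED1 regions 89 (24.1%, against 17.6% of all) were gained and 20 (5.41%, against 6.9% of all) lost, and of their 402 MED24 regions 80 (19.9%, against 16% of all) were gained and 30 (7.46%, against 8.83% of all) lost. MED1 was called in 61.4% and 66.8% of these regions at 2 h, against 46.8% and 43.5% at 0 h. MED24 was called in 53.5% and 65.7% at 2 h, against 49.8% and 43.0% at 0 h, so its gap was small in clone a. Over all MED24 regions the shares were 61.2% and 71.5%, against 60.3% and 55.2%. Gained regions outnumbered lost ones at 26 genes for MED1 and 28 for MED24, and lost ones outnumbered gained ones at 6 and 7. The count by gene was not made over all genes, where gained regions also outnumbered lost ones. Nrp2, the neuropilin that serves Sema3f, had 4 gained and no lost MED1 region of 26 and 9 gained and no lost MED24 region of 24. Grip1, a scaffold that binds B-class ephrins, had 6 gained of 18 and 5 gained of 19 with none lost. Arhgef28 and Tiam1 had 7 and 10 gained MED1 regions, of 20 and 26, with 0 and 2 lost, and 5 and 3 gained MED24 regions of 21 each, with 2 and 3 lost. The lowest balance was at Slit3, a ligand of the Robo receptors, with 3 gained and 4 lost MED1 regions of 19 and 3 gained and 7 lost MED24 regions of 22, followed by Dcc, a netrin receptor, and Farp1, each with 2 lost MED1 regions and 1 lost MED24 region and none gained, and then, level with each other, Flrt1, with 1 lost region for each protein and none gained, and the netrin receptor gene Unc5b, with 2 gained and 4 lost MED1 regions of 14 and 2 gained and 2 lost MED24 regions of 15.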

How the data were processed

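Peak lists of 8 ChIP libraries were analysed. Per the submitters' processing notes, Bowtie2, bedtools, MACS2 and the mm10 build were used; their versions and settings are not given in the sources read here. The deposited MED1 lists give positions, a score, the fold enrichment ratio, and −log10 p and −log10 q values as written by the authors. The deposited MED24 lists give positions and a score, read here as 10 times −log10 q, which holds for every MED1 peak. Regions were ranked by −log10 p (MED1) or score (MED24).

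Python 3.11.15 (pandas 2.3.3, numpy 2.4.6, scipy 1.17.1, matplotlib 3.10.9) merged peaks, assigned regions to RefSeq gene spans (3 MED1 and 2 MED24 guidance regions tied with another gene were kept) and counted calls, after being tested on simulated peak lists. Libraries were compared with exact two-sided permutation tests. Groups follow the sample titles. Same-lettered libraries come from the same clone; their deviations from the group means correlated at -0.00589 (MED1) and -0.00759 (MED24). Whether clones were cultured separately is not stated, so the p-values measure only the spread between these libraries.

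Named by rule were, per family, up to 4 genes with the highest and 4 with the lowest gained minus lost count and the gene with most regions, the strongest gained and lost region, the 5 retained regions per protein that differed most each way, and 4 partner genes at each end; other genes were named after their values were seen. The members and gene lists were chosen with earlier results of these data known. Exons and introns were not annotated, and region sequences were not read.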

Additional observations from a re-analysis of the deposited data

Results flagged for a closer look

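At 2 genes the numbers of called regions differed between 2 h and 0 h in opposite directions for the 2 proteins in both clones. Ephb2, a receptor gene for B-class ephrins, had 3 and 4 MED1 regions called at 2 h, against 4 and 5 at 0 h, 2 h minus 0 h being -1.0 (-1 within each clone), and 6 and 5 MED24 regions at 2 h, against 4 and 3 at 0 h, 2 h minus 0 h being 2.0 (2 within each clone). Sema6b, a class 6 semaphorin gene, had 0 and 1 MED1 regions called at 2 h, against 1 and 2 at 0 h, 2 h minus 0 h being -1.0 (-1 within each clone), and 2 and 2 MED24 regions at 2 h, against 0 and 1 at 0 h, 2 h minus 0 h being 1.5 (2 for clone a and 1 for clone b). The difference between the proteins was not tested in either gene, and each rests on 1 to 2 regions.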

How the results depend on the processing

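With 2 libraries a group, counts of gained, lost and retained regions depend on where each list ends. In lists of 10000 top-ranked peaks, gained regions numbered 15 for MED1 and 19 for MED24, lost 11 and 10, and retained 7 and 11. With 20000 they numbered 29 and 32 gained, 11 lost for MED1, and 19 and 24 retained. A score of at least 100 left 8 lost MED1 regions and 26 and 31 retained. Assignment by overlap with the gene span gave 35 gained MED1 regions, 9 lost and 43 retained MED24 regions. The net share, gained minus lost, was 14.0% for MED1 as reported, against 10.7% of all MED1 regions. With 10000 peaks the net share was 8.51%, and with a score of at least 100 it was 25.6%. For partner genes and MED1 it was 27.6% with 10000 peaks and 9.74% with 20000, against 18.6% as reported.

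For semaphorins the net share was 25.4% for each protein as reported, against 10.7% of all MED1 and 7.16% of all MED24 regions. The net share of all regions was not taken under the other settings. For MED1 it was 31.6% with 10000 peaks, 25.5% with 20000, 37.5% with the score minimum, 25.7% by gene span, 27.5% within 20 kb, 26.7% with windows of 250 bp to either side of the peak centre and 22.0% without Sema5b. For MED24 it was 36.0% with 10000 peaks, 17.8% with 20000, 21.1% with the score minimum, 29.7% by gene span, 27.2% within 20 kb, 24.4% with windows and 21.0% without Sema5b. The share of gained MED24 regions also gained in MED1, 61.7% as reported, was 73.7% with 10000 peaks, 62.5% with 20000, 60.0% by gene span, 58.7% within 20 kb, 59.6% with the score minimum and 63.8% with windows. In the other direction, 64.9% as reported, it was 93.3%, 69.0%, 60.0% within 20 kb and 59.7% with windows. The mean MED1 shift was -0.528, against a median of -2.69, and the median of ranks among retained regions alone was -0.261.

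With the clone as replicate block, where differences are paired within clones, gained regions averaged 100 (MED1) and 98 (MED24) and lost ones 49.5 and 48, since only 1 library per time then has to call a region. The net semaphorin share was 35.1% and 34.2%, and the shared gained shares were 55.0% (MED24 in MED1) and 53.8% (MED1 in MED24). The differences in called regions cannot change with the block, since the mean of the clone differences equals the difference of the group means.

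Leaving out 1 library, which also lets fewer libraries decide a call, gave 67 to 94 gained and 26 to 38 lost MED1 regions and 69 to 99 gained and 23 to 47 lost MED24 regions. The highest gained counts came without the 2 h library of clone a, and the highest lost counts without the 0 h library of clone a for MED1 and of clone b for MED24. Net shares were 10.2 to 23.9% (MED1) and 7.83 to 27.1% (MED24), and 22.8 to 37.7% and 21.9 to 40.4% for semaphorins. For partner genes they were 12.2 to 26.5% (MED1) and 3.23 to 24.9% (MED24). Shared gained shares were 43.4 to 66.7% (MED24 in MED1) and 43.6 to 75.4% (MED1 in MED24). The median percentile shift ran from -3.76 to 1.785 for MED1, turning positive without the 0 h library of clone a, and from -0.456 to 7.68 for MED24, turning negative without the 2 h library of clone a; the cause was not tested.

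Of 572 values for 52 counts of named genes, 379 were labelled close to the value reported and 193 moved. The rule for these counts had no label for a change of sign and took one as close. Whether any count turned its sign is therefore not shown. Of 358 values for 30 results on sets of regions, 210 stayed close, 146 moved and 2, both medians of percentile shift, turned their sign. Peak lists with no read counts set the limit: a region missing from a list is not shown to lack Mediator, and a nearest gene is not shown to be the gene acted on.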
